A study of Mus musculus with 5 samples.

Results

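Lipoxygenases and prostaglandin synthases turn arachidonic acid into leukotrienes, hydroxy fatty acids and prostaglandins. The genes described here are 10 of the 49315 in each count table, chosen by symbol: the lipoxygenases Alox5 and Alox12, the leukotriene genes Alox5ap and Ltc4s, the cyclooxygenases Ptgs1 and Ptgs2, and the terminal prostanoid synthases Ptges, Ptges2, Ptgds and Ptgis. Their poly-A RNA was sequenced in mouse hearts after 18 weeks on either of 2 diets, 1 high in fat and sucrose (HFHS, 3 libraries) and the other standard chow (2 libraries). Both groups had received 1 intravenous dose of iron dextran, an iron and sugar-polymer complex, and their hearts were perfused with buffered saline before they were taken, 48 hours later. The labels give no strain, sex or age, and no library without iron is part of the comparison, so a difference is one between diets in iron-treated mice. The labels do not say that each library is a separate animal, and p-values measure the spread between these libraries.

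Arachidonic acid is cut from membrane phospholipids by phospholipases. Cyclooxygenases convert it to prostaglandin H2, from which the terminal synthases make prostaglandin E2, prostaglandin D2 and prostacyclin, the vasodilator of the vessel wall. In myeloid cells the product of Alox5, helped by the membrane protein FLAP (Alox5ap), makes leukotriene A4, and Ltc4s joins it to glutathione. Ptgs2 messenger RNA is widely read as a marker of ferroptosis, the iron-dependent death by lipid peroxidation that the series title names, and lipoxygenases are among the enzymes that can oxidise membrane lipids.

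The libraries held 14362766 to 17774735 counts. A count of 0 would allow up to 0.169 to 0.209 CPM (counts scaled to the library total), the level of 3 counts, for counting error only. The series' design text calls the tissue whole heart, of which 10 mg of frozen tissue was extracted. Ventricular markers were abundant, at a summed 53701 to 62731 CPM, with the highest CPM in Myh6 and Tnnt2. Of 6 atrial markers Myl7, Sln and Bmp10 were near 0, with 0 to 7, 0 to 1 and 0 to 3 counts per library. Myl4 had 11 to 36 counts and fell 2.03-fold (edgeR adjusted p = 0.0313), Dkk3 had 17 to 35 and did not pass, and Nppa, at 484 to 1617 counts, made up most of the list's sum and did not pass.

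The genes that fell in HFHS hearts were Alox5ap, Ltc4s and Ptgis. All 10 members were tested; 3 fell, none rose and 7 did not pass, beside 38.1% of all 14221 tested genes called, 18.7% lower and 19.4% higher. Those shares stand for 2661 genes lower and 2756 higher; scaled by library totals only, the split was 3427 lower and 2053 higher, and the members' count was the same. Those same 3 were also the members whose groups did not overlap, beside 58.5% of tested genes without overlap, 29.4% with HFHS lower and 29.2% with HFHS higher. Over the members the median log2 fold change was -0.16, against -0.01 over all tested genes. None of the 10 was called higher by edgeR at an adjusted p of 0.05; at an unadjusted p under 0.05 the count was also 0, as it was by DESeq2, which gave Ptgs2 no adjusted p, and limma-voom. It was 1 in 3 alternatives given with Ptgds.

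The upstream stretches of 4 members are shown: Alox5 and Ltc4s, because within 1 path the second fell and the first did not pass, and Ptgs1 and Ptgs2, because these isozymes catalyse the same step and differed in level. They are the bases before the start site in RefSeq (GRCm38.p6), which held 8 of the 10 members, written 5′ to 3′ on the gene's strand. The Ltc4s stretch stops where the gene's span in the count tables begins.
Alox5, chr6:116461179-116461428, minus strand: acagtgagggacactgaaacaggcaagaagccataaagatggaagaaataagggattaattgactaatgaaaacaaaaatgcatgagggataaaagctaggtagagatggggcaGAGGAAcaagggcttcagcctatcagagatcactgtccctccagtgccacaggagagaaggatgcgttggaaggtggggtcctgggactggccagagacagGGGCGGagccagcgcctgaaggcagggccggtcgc
Ltc4s, chr11:50238617-50238782, minus strand: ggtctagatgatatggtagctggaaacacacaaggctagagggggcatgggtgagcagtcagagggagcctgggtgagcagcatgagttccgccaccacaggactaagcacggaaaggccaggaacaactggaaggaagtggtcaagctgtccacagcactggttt
Ptgs1, chr2:36230176-36230425, plus strand: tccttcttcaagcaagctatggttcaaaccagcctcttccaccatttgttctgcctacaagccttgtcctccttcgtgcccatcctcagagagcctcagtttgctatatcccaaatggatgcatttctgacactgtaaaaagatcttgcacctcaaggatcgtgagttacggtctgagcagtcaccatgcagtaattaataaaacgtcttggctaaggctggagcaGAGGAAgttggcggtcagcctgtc
Ptgs2, chr1:150099781-150100030, plus strand: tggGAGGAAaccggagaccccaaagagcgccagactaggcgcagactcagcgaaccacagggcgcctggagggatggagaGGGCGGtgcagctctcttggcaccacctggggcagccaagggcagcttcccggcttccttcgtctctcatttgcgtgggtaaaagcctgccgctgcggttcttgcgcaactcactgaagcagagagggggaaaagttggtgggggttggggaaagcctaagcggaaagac
Capitals mark matches on either strand to GGGCGG (the GC box) or GAGGAA (a core bound by PU.1 and related factors). Also searched, with no match in these 4 windows, were TATAAA (the TATA box), CCAAT (the CCAAT box), TGACGT (the core of the cyclic AMP response element) and CACGTG (an E-box). Alox5 and Ptgs2 each held 1 GC box and 1 GAGGAA, Ptgs1 held 1 GAGGAA, and Ltc4s held none of the 6 in its 250 bases. Among 32851 promoter windows of 250 bases, the GC box was in 32.7%, the PU.1 core in 23.3%, the TATA box in 12.4%, the CCAAT box in 33.8%, the cyclic AMP core in 6.47% and the E-box in 6.02%. No matches between the motifs overlapped.

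Levels can be compared between genes only per exon length, as RPKM (CPM per kilobase of exon). Ptgds was the highest in both groups, at a mean of 89.3 RPKM in HFHS and 68.9 RPKM in chow hearts, and made up 63.6% to 85.7% of the summed RPKM of the 10 genes. Ptges2 followed at 6.10 and 6.41 RPKM. Below it the order differed between the diets. In chow hearts Alox5ap (5.54 RPKM) and Ptgis (4.94 RPKM) came next and then Ltc4s (3.09 RPKM) and Alox5 (3.01 RPKM), whose ranges met. In HFHS hearts the order was Ptgis (3.38 RPKM), Alox5 (3.16 RPKM), Alox5ap (2.37 RPKM) and Ptgs1 (1.78 RPKM), each range meeting the next, followed by Ltc4s (1.18 RPKM) and Alox12 (1.02 RPKM), whose ranges met. Ptges and Ptgs2 closed the order in both groups, at 0.209 and 0.175 RPKM in HFHS and 0.293 and 0.126 RPKM in chow hearts.

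Near the counting floor lay 3 members, with that range taken as fewer than 30 counts, 10 times the floor. Ptgs2 and Ptges did so in all 5 libraries, and Ltc4s in the 3 HFHS libraries. Among all tested genes, 9.42% were called in the lowest of 10 equal bins of mean count, which holds Ptgs2 and Ptges, and 14.8% in the next, which holds Ltc4s, against 68.2% in the highest bin, which holds Ptgds.

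**Figure D1:**
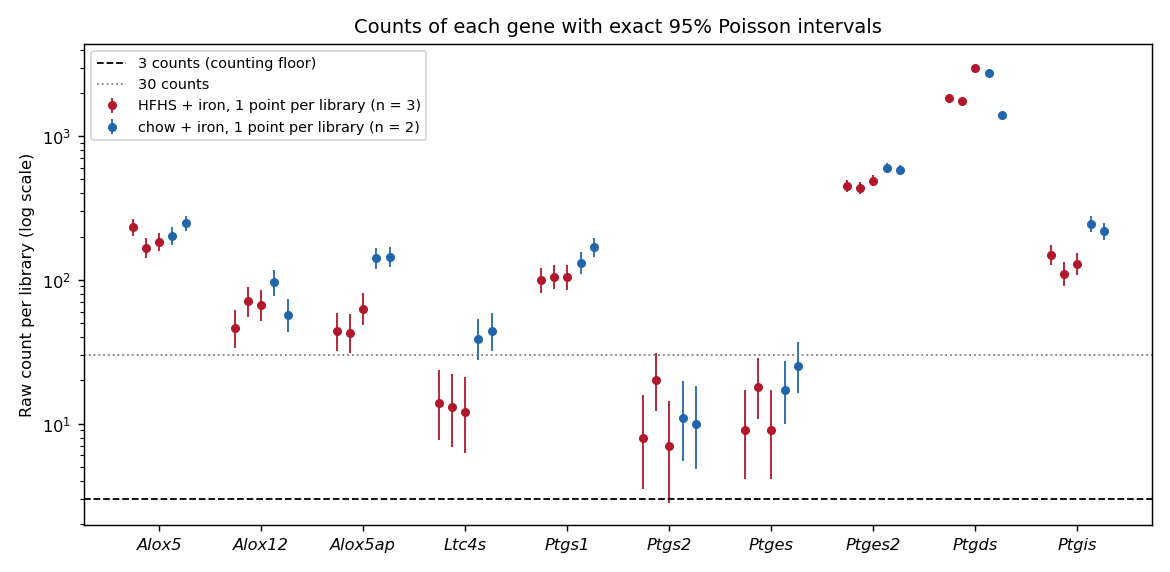
Raw counts of each gene (log scale) in the 3 HFHS libraries (red) and 2 chow libraries (blue), with exact 95% Poisson intervals that cover counting error only; dashed and dotted lines stand at 3 and 30 counts. Ptgs2, with 7 to 20 counts, and Ptges, with 9 to 25, lie under 30 counts in every library.

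Among the leukotriene genes Alox5ap and Ltc4s fell and Alox5 did not pass, and the difference between their fold changes was not tested. Alox5 (ENSMUSG00000025701, chromosome 6 from 116410077 to 116461178, GRCm38), the lipoxygenase that starts leukotriene synthesis, had 232, 167 and 185 counts in HFHS libraries 1, 2 and 3 and 203 and 247 in chow libraries 1 and 2. In CPM these were 14.47, 11.97 and 12.49 against 10.98 and 13.71, and the groups overlapped. Its log2 fold change was 0.08 (SE 0.138, 95% interval -0.22 to 0.37) with an edgeR adjusted p of 0.700, so a change beyond 1.29-fold higher was outside the interval.

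Alox5ap (ENSMUSG00000060063, chromosome 5 from 149264767 to 149288153) encodes FLAP, the membrane protein that presents arachidonic acid to the lipoxygenase. It had 44, 43 and 63 counts in HFHS and 142 and 145 in chow libraries, or 2.74, 3.08 and 4.25 CPM against 7.68 and 8.05 CPM. Every HFHS library lay below both chow libraries. The gene fell 2.34-fold, from 7.86 ± 0.259 CPM (SD, n = 2) to 3.36 ± 0.791 CPM (SD, n = 3); the log2 fold change was -1.23 (SE 0.204; edgeR adjusted p = 0.000312).

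Ltc4s (ENSMUSG00000020377, chromosome 11 from 50236469 to 50238616), a membrane enzyme related to FLAP that makes leukotriene C4, had 14, 13 and 12 counts in HFHS and 39 and 44 in chow libraries. In CPM these were 0.873, 0.932 and 0.810 against 2.11 and 2.44, again without overlap. It fell 2.60-fold, from 2.28 ± 0.235 CPM (SD, n = 2) to 0.872 ± 0.0611 CPM (SD, n = 3); the log2 fold change was -1.38 (SE 0.325; edgeR adjusted p = 0.00412). Its highest HFHS count of 14 has an exact Poisson interval of 7.7 to 23.5, and its lowest chow count of 39 one of 27.7 to 53.3. Antisense genes overlap 26.1% of the exon length of Ltc4s and 13.3% of that of Alox5ap, and each had at most 5 counts in a library.

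Per exon length, Alox5 stood at 1.82, 1.34 and 1.02 times Alox5ap in HFHS libraries 1, 2 and 3, and at 0.494 and 0.589 times in the chow libraries. The ratio was thus above 1 in every HFHS library and below 1 in both chow libraries. Alox5ap over Ltc4s was 1.63, 1.71 and 2.72 in HFHS and 1.89 and 1.71 in chow libraries, which overlap. These ratios were not tested.

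Alox5ap and Ltc4s are best known from myeloid cells, and in bulk tissue fewer cells of a type and less RNA per cell cannot be told apart. Of 13 macrophage markers, 12 fell and none rose, with a median log2 fold change of -1.003 and a summed level of 208.0 to 237.2 CPM in HFHS and 486.3 to 560.0 CPM in chow hearts. The markers of highest CPM, Lyz2 and C1qa, fell 3.07-fold and 2.51-fold, and only Cx3cr1 did not pass; none was at 0 in any library. Per 1000 CPM of these markers, Alox5ap stood at 13.2, 14.7 and 17.9 in HFHS and 15.8 and 14.4 in chow libraries, and Ltc4s at 4.20, 4.45 and 3.41 against 4.34 and 4.36. Both overlap between the groups. Alox5 on the same scale stood at 69.6, 57.1 and 52.6 against 22.6 and 24.5, so all HFHS libraries were above both chow libraries. Since Alox5 itself did not pass and the marker sum was lower in HFHS, that separation restates the lower sum. These ratios are not corrected for exon length, which is 4106 bases in Alox5, 1266 in Lyz2 and 1040 in C1qa. Over all tested genes the fold change followed exon length, with a rank correlation of 0.43.

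The macrophage sum rests heavily on Lyz2, a lysozyme gene that held 34.9% to 36.5% of it in HFHS and 44.0% to 47.4% in chow libraries. Without Lyz2, a choice made after seeing the data, Alox5ap stood at 20.3, 23.1 and 28.0 against 28.2 and 27.3, and Alox5 at 107.0, 89.9 and 82.2 against 40.3 and 46.5. Ltc4s stood at 6.455, 6.997 and 5.331 against 7.747 and 8.288 and no longer overlapped. Whether macrophage content accounts for the fall of Alox5ap and Ltc4s was not tested.

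**Figure D2:**
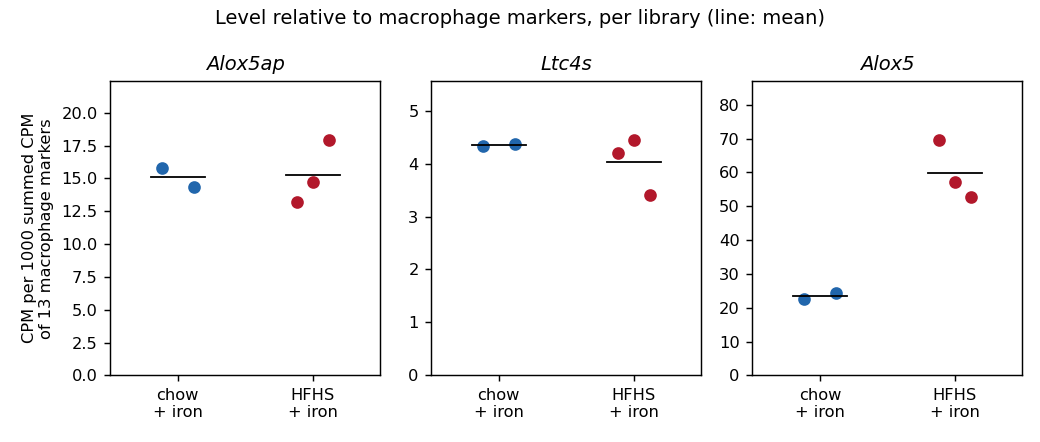
CPM of Alox5ap, Ltc4s and Alox5 per 1000 summed CPM of 13 macrophage markers (linear axes from 0), 1 point per library with a line at each group's mean. Alox5ap and Ltc4s overlap between the diets, while Alox5 stands at 52.6 to 69.6 in HFHS and 22.6 to 24.5 in chow libraries. Alox5 itself did not pass, so its separation restates the lower marker sum in HFHS. The ratios are not corrected for exon length.

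Markers of other leukocytes that use this path were measured too. The neutrophil list summed to 1.68 to 2.63 CPM in HFHS and 3.46 to 4.61 CPM in chow hearts; 2 of its 3 tested genes, S100a8 and S100a9, fell, and the defining genes Ly6g and Ngp had 0 counts in every library. Of 7 tested mast cell markers Gata2 fell and Kit rose, with summed levels of 22.3 to 27.1 CPM and 29.4 to 30.1 CPM, and the Fc receptor genes Fcer1a and Ms4a2 had 0 to 4 counts. All 9 red cell markers fell, from a summed 1473 to 1683 CPM in chow to 278.7 to 560.1 CPM in HFHS hearts, with the highest CPM in Hbb-bs and Hba-a1. The part of these cells in the level of any member was not tested.

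Both falling leukotriene genes are short, at 1420 exon bases for Alox5ap and 736 for Ltc4s. In the lowest of 10 equal bins of exon length (57 to 1436 bases), 43.6% were called lower and the median log2 fold change was -0.47, while in the bin that holds Alox5 (4106 bases) 14.1% were called lower and the median was 0.03. When exon length and GC content were offset in every library (the length and GC offsets), Alox5ap had a log2 fold change of -0.89 (edgeR adjusted p = 0.00416) and Ltc4s of -0.98 (edgeR adjusted p = 0.0353). Alox5 was at 0.05 with an adjusted p of 0.823. The median log2 fold change of the macrophage markers was -0.86 with the offsets, against -1.003 without. Without the offsets the longer macrophage markers Csf1r, Adgre1, Cd163 and Mrc1, of 3245 to 6371 exon bases, fell 1.37-fold to 1.62-fold. Cx3cr1, of 4505 exon bases, did not pass (log2 fold change -0.66, edgeR adjusted p = 0.112).

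Alox12 (chromosome 11 from 70241457 to 70255353), a lipoxygenase prominent in platelets, had 46, 71 and 67 counts in HFHS and 96 and 57 in chow libraries. The means were 4.16 ± 1.15 CPM (SD, n = 3) and 4.18 ± 1.43 CPM (SD, n = 2), with a log2 fold change of -0.02 (95% interval -0.61 to 0.57) and an edgeR adjusted p of 0.971. The chow libraries spanned the HFHS libraries but for one. Of 5 tested platelet markers, Pf4 fell 2.81-fold and Gp1ba rose 2.56-fold (summed list level 22.03 to 22.12 CPM in chow and 10.97 to 13.64 CPM in HFHS hearts), while Gp9, Gp6 and Treml1 had 0 to 5 counts. The other 5 lipoxygenase genes, Alox15, Alox8, Alox12b, Alox12e and Aloxe3, had 0 to 6 counts and could not be tested; Alox12b and Alox12e had none.

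The cyclooxygenases did not pass. Ptgs1 (chromosome 2 from 36230426 to 36252272), the constitutive form, had 100, 105 and 104 counts in HFHS and 132 and 169 in chow libraries, or 6.24, 7.53 and 7.02 CPM against 7.14 and 9.38 CPM. Only HFHS library 2 lay above the lower chow library. Its log2 fold change was -0.25 (SE 0.170, 95% interval -0.62 to 0.11), with an edgeR adjusted p of 0.260. Per 1000 CPM of the 10 endothelial markers Ptgs1 stood at 4.62, 5.71 and 5.34 in HFHS and 3.24 and 4.65 in chow libraries, which overlap. That sum holds the marker Fabp4, which fell 2.39-fold and has the highest CPM of the list, and the ratio was not taken without it.

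Ptgs2 (chromosome 1 from 150100031 to 150108227), the inducible form, had 8, 20 and 7 counts in HFHS and 11 and 10 in chow libraries. HFHS library 2 stood above the rest, at 1.43 CPM, where the others lay between 0.473 and 0.595 CPM. The log2 fold change was 0.45 (SE 0.557) with an edgeR adjusted p of 0.562, and its 95% interval of -0.74 to 1.65 spans from 0.597-fold to 3.13-fold. Per exon length, Ptgs1 stood at 14.7, 6.19 and 17.5 times Ptgs2 in HFHS and at 14.2 and 19.9 times in chow libraries, so Ptgs1 was the higher of the pair in every library.

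**Figure D3:**
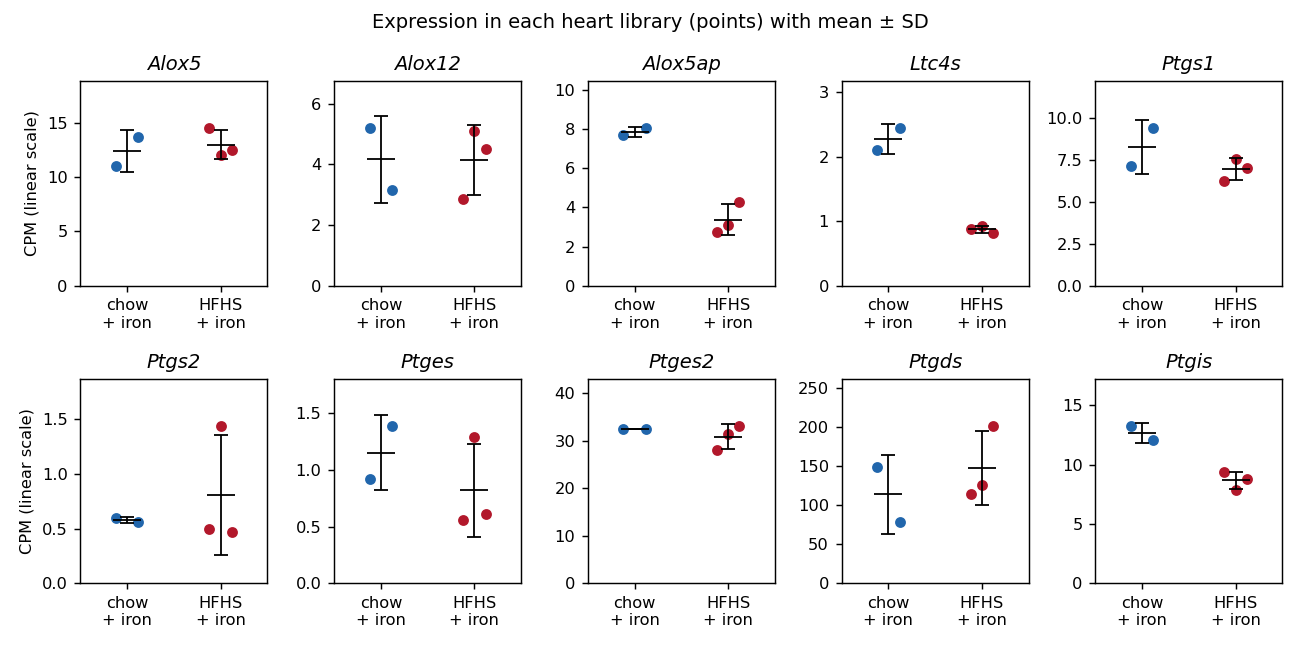
CPM of each gene (linear axes from 0) in the 2 chow and 3 HFHS libraries, 1 point per library, with the mean and SD in black. The groups are apart for Alox5ap, Ltc4s and Ptgis and overlap for the other 7 genes.

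Among the terminal synthases, the prostacyclin synthase gene fell and the others did not pass. Ptgis (ENSMUSG00000017969, chromosome 2 from 167191805 to 167240604) had 150, 110 and 130 counts in HFHS and 245 and 218 in chow libraries, or 9.36, 7.89 and 8.78 CPM against 13.2 and 12.1 CPM. Each HFHS library was below both chow libraries. It fell 1.46-fold, from 12.7 ± 0.815 CPM (SD, n = 2) to 8.67 ± 0.741 CPM (SD, n = 3); the log2 fold change was -0.54 (SE 0.134; edgeR adjusted p = 0.00547). Under the length and GC offsets it was at -0.41 on the log2 scale (edgeR adjusted p = 0.0338).

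Prostacyclin synthase is made by endothelium, smooth muscle and fibroblasts. All 10 fibroblast markers fell (median log2 fold change -0.50, summed level 1793 to 1807 CPM in HFHS and 2414 to 2482 CPM in chow hearts, highest CPM in Gsn and Dcn). Of 10 endothelial markers 7 fell, Vwf rose, and Kdr and Cdh5 did not pass (median -0.43, highest CPM in Fabp4 and Kdr). Their summed level was 1313 to 1350 CPM in HFHS and 2017 to 2201 CPM in chow hearts. Fabp4 alone held 420 to 426 CPM of it in HFHS and 929 to 1099 CPM in chow hearts, so the sum rests heavily on that gene. Of 9 pericyte and smooth muscle markers Rgs5, Kcnj8 and Acta2 fell, Abcc9 rose and 5 did not pass. The median of that list was -0.28, and its summed level was 1284 to 1368 CPM in HFHS and 1389 to 1391 CPM in chow hearts. Per 1000 CPM of fibroblast markers, Ptgis stood at 5.19, 4.36 and 4.89 in HFHS and 5.34 and 5.01 in chow libraries, which overlap. Ptgis was not scaled to the endothelial markers, nor to the pericyte and smooth muscle markers. The pericyte and smooth muscle sum differed less between the diets than the fibroblast sum, so the overlap is shown for the fibroblast markers only. The part of these cells in the fall of Ptgis was not tested. The noncoding gene 1110018N20Rik shares 156 exon bases with Ptgis on the opposite strand and had 66, 93 and 61 counts in HFHS and 142 and 152 in chow libraries; without a stated strand setting, reads of the pair in that stretch cannot be told apart.

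Ptgds (ENSMUSG00000015090, chromosome 2 from 25466709 to 25470046), the lipocalin-type prostaglandin D synthase, had 1833, 1760 and 2978 counts in HFHS and 2759 and 1409 in chow libraries. In CPM these were 114.4, 126.2 and 201.0 against 149.2 and 78.2. HFHS library 3 and chow library 1 were high within their groups, and the groups overlapped. Its log2 fold change of 0.37 (SE 0.234) had an edgeR adjusted p of 0.233. Without chow library 1 the log2 fold change was 0.91 and passed, with an edgeR adjusted p of 0.00296, and without chow library 2 it was -0.02 with an adjusted p of 0.951. It also passed as higher with the length and GC offsets, at 0.65 (edgeR adjusted p = 0.0413), and with no filter on low counts, at 0.36 (edgeR adjusted p = 0.000117); over 15 alternatives the adjusted p ran from 0.000117 to 0.951. Of the atrial markers, Nppa had 1617 counts in chow library 1 and 573 in chow library 2, while Myl4 had 32 and 36 and Dkk3 33 and 35. In HFHS library 3, the other library high in Ptgds, Nppa was the lowest of its group, with 484 counts beside 608 and 642. The part of atrial tissue in the spread of Ptgds was not tested. Of 4 tested endocardial markers Npr3 and Plvap rose and Cytl1 fell, with summed levels of 43.0 to 45.5 CPM in HFHS and 27.4 to 36.0 CPM in chow hearts.

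Neither gene of the membrane-bound prostaglandin E synthases passed. Ptges2 (chromosome 2 from 32395896 to 32405772), the membrane-associated form, had 449, 438 and 490 counts in HFHS and 599 and 584 in chow libraries, or 28.0, 31.4 and 33.1 CPM against 32.4 CPM in both chow libraries. HFHS library 3 lay above the chow libraries and the others below. Its log2 fold change was -0.07 (95% interval -0.28 to 0.13) with an edgeR adjusted p of 0.589. Ptges (chromosome 2 from 30889471 to 30929863), the inducible microsomal form, had 9, 18 and 9 counts in HFHS and 17 and 25 in chow libraries. HFHS library 2, the highest for Ptgs2, was also the highest of its group for Ptges, at 1.29 CPM beside 0.561 and 0.608 CPM. The log2 fold change of Ptges was -0.51 (95% interval -1.48 to 0.47) with an edgeR adjusted p of 0.412.

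**Figure D4:**
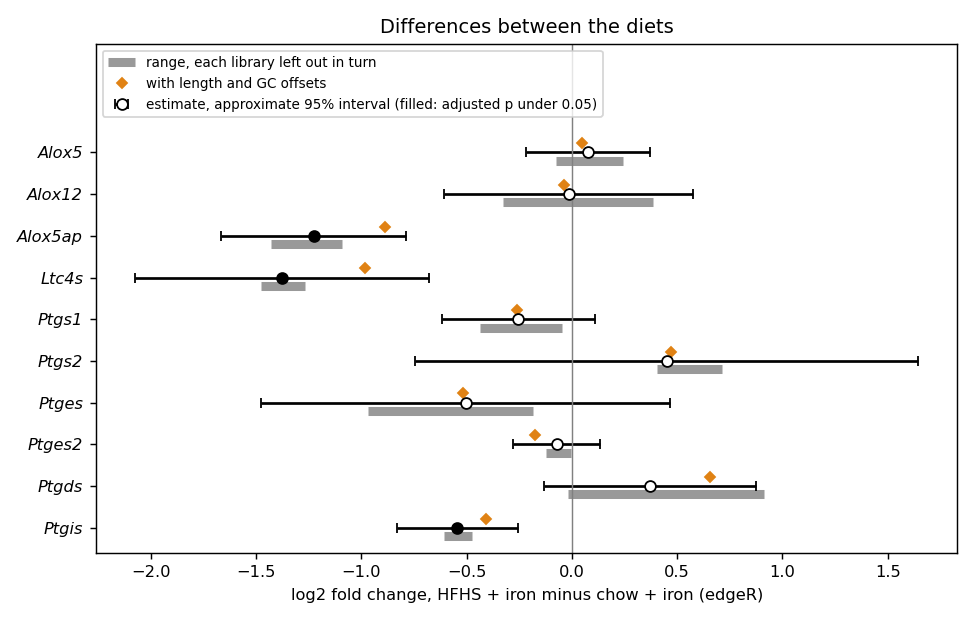
Log2 fold change of each gene, HFHS minus chow (edgeR), with approximate 95% intervals; filled circles passed an adjusted p of 0.05, grey bars span the estimates with each library left out in turn, and diamonds give the estimate with length and GC offsets. Alox5ap, Ltc4s and Ptgis lie below 0 throughout, while the grey bar of Ptgds runs from -0.02 to 0.91.

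Mesothelial cells also make prostaglandins and prostacyclin. The summed level of their markers was 8.003 to 10.88 CPM in chow and 14.6 to 18.1 CPM in HFHS hearts. The defining gene Msln had 21 to 23 counts in HFHS and 0 in both chow libraries. Msln, Lrrn4, Muc16 and Upk3b passed the filter on low counts through the HFHS libraries, where they are high, so a count of markers that rose says nothing here. Gpm6a rose 2.52-fold, and Wt1, the marker with the highest CPM, had 64 to 118 counts in HFHS and 125 to 146 in chow libraries and did not pass. Adipocyte markers were near 0, with 0 to 4 counts each. Their part in any member's level was not tested.

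Around the members, 70 further genes of eicosanoid metabolism were in the tables and 46 were tested. Of these 15 fell, 4 rose and 27 did not pass, with a median log2 fold change of -0.23. Over all tested genes 18.7% fell, 19.4% rose and the median was -0.01, and the counts of each list below stand beside those shares; for all 46 genes together, and for single lists, the share called was not tested against them. With at least 10 counts required in every library 14 fell and 4 rose, and with the length and GC offsets 13 fell and 1 rose.

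In the list of arachidonate release, 3 of 12 tested genes fell, 1 rose and 8 did not pass (median log2 fold change -0.14), beside 38.1% of all tested genes called. Anxa1, encoding annexin A1, which restrains phospholipase A2, fell 1.62-fold from 35.2 ± 5.32 CPM (SD, n = 2) to 21.7 ± 0.504 CPM (SD, n = 3). Pla2g7, the platelet-activating factor acetylhydrolase of macrophages, fell 2.04-fold and the phospholipase gene Pla2g12a 1.42-fold. Pla2g4e, named because it alone rose, went up 1.63-fold, with an edgeR adjusted p of 0.0121, and was not called with the length and GC offsets, without HFHS library 1 or without chow library 2. The cytosolic phospholipase gene Pla2g4a, the best known source of free arachidonic acid and likewise named outside the rule, had 64, 36 and 55 counts in HFHS and 85 and 55 in chow libraries, with an adjusted p of 0.680.

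Of 6 other prostanoid synthase genes tested, 4 fell, none rose and 2 did not pass (median -0.35). Ptges3, the cytosolic prostaglandin E synthase and co-chaperone p23, fell 1.47-fold, Fam213b 1.26-fold and the carbonyl reductase Cbr1 1.29-fold. The fourth, the thromboxane synthase gene Tbxas1, which macrophages and platelets express, had 30, 26 and 35 counts in HFHS and 76 and 57 in chow libraries and fell 1.79-fold with an edgeR adjusted p of 0.0201. Ptges3 has the pseudogene Ptges3-ps, so its counts are uncertain. The number that fell was 2 without HFHS library 2 and 1 without chow library 1.

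Around Ltc4s, in leukotriene conversion 3 of 5 tested genes fell and none rose (median -0.42). The dipeptidase Dpep1, which turns leukotriene D4 into leukotriene E4, fell 1.59-fold from 67.8 ± 1.01 CPM (SD, n = 2) to 42.7 ± 4.86 CPM (SD, n = 3), the glutathione transferase gene Mgst3 1.33-fold, and Ggt5, which cleaves leukotriene C4, 1.34-fold. Lta4h, the hydrolase for leukotriene B4 and named outside the rule, did not pass (log2 fold change -0.17, edgeR adjusted p = 0.174).

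Receptor genes did not pass. None of 6 tested prostanoid receptor and receptor-partner genes was called by edgeR (median log2 fold change 0.01; 0 at an unadjusted p under 0.05, and 0 by DESeq2 and limma-voom), and the 3 with the smallest p were Ptger4, Tbxa2r and Ptgir, with edgeR adjusted p of 0.241, 0.343 and 0.467. Without HFHS library 3, 1 gene of the list was called lower. Ptger2, Ptger3, Ptgdr and Ptgdr2 had 0 to 12 counts. Of the leukotriene and resolvin receptors only Cysltr1 and Cmklr1 could be tested, with log2 fold changes of -0.35 and -0.06 and edgeR adjusted p of 0.462 and 0.709, and the leukotriene B4 receptor gene Ltb4r1 had 1 to 4 counts.

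Genes of transport and breakdown went both ways, with 2 of 7 higher and 2 lower (median 0.08). Hpgd, the dehydrogenase that inactivates prostaglandins, fell 1.70-fold from 9.66 ± 1.10 CPM (SD, n = 2) to 5.69 ± 0.253 CPM (SD, n = 3), with an edgeR adjusted p of 0.00152. Ptgr1, which reduces leukotriene B4 and 15-keto prostaglandins, fell 1.74-fold. Abcc1, an exporter of leukotriene C4, rose 1.49-fold from 23.6 ± 0.351 CPM (SD, n = 2) to 35.2 ± 1.91 CPM (SD, n = 3), with an edgeR adjusted p of 0.000251, and Ptgr2, named because it was the other that rose, 1.17-fold. With the length and GC offsets no gene of the list was called higher and 1 lower; 1 was called higher without HFHS library 1, HFHS library 2 or chow library 1, and 1 lower without HFHS library 1, HFHS library 3 or either chow library.

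In the epoxygenase list, which holds the P450 branch and its epoxide hydrolases, 3 of 8 tested genes fell and 1 rose (median -0.45). The soluble epoxide hydrolase gene Ephx2, which breaks down epoxyeicosatrienoic acids, rose 1.44-fold, from 265.6 ± 14.1 CPM (SD, n = 2) to 381.9 ± 13.1 CPM (SD, n = 3), with an edgeR adjusted p of 6.19e-05. Gpx4, the lipid hydroperoxide peroxidase placed in this list, fell 1.81-fold, and Cyp4f18, a leukotriene B4 hydroxylase of myeloid cells, went from 28 and 15 counts in chow to 8, 5 and 3 in HFHS libraries, 3.25-fold lower. Cyp4f18 passed the filter on low counts through the chow libraries, where it is high. With at least 10 counts required in every library, 2 genes of the list were called lower. The third that fell, Cyp2j6, was 1.32-fold lower, and 1 gene was called lower without HFHS library 3, without chow library 1 or by DESeq2.

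**Figure D5:**
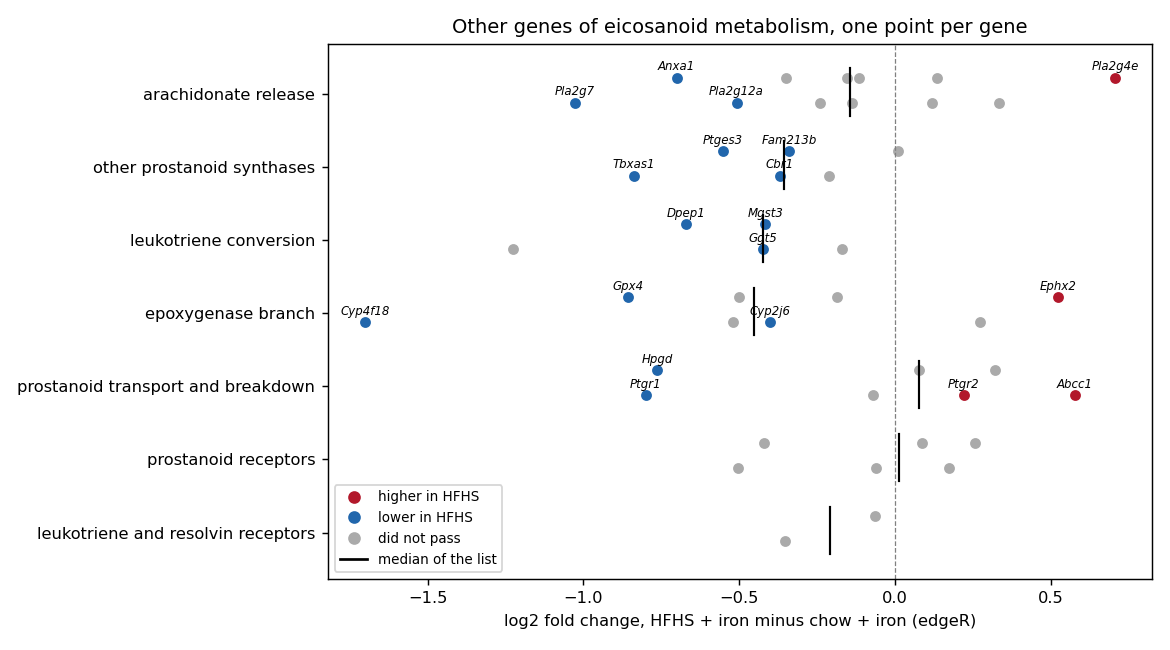
Log2 fold change, HFHS minus chow (edgeR), of the 46 tested genes in 7 lists of eicosanoid metabolism, 1 point per gene, coloured by call, with a bar at each list's median and names for called genes. The points named as lower number 15 and those named as higher 4, and no receptor gene was called.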

How the data were processed

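Poly-A enriched RNA of mouse hearts was sequenced in 3 HFHS and 2 chow libraries. The values are raw counts per gene as deposited by the authors, 1 table of 49315 genes per library. Trimmomatic 0.36, STAR 2.5.2b, featureCounts of Subread 1.5.2 and the GRCm38 build are named in the submitters' processing notes. Not given in the sources used here are the annotation release, the strand setting and how reads in overlapping genes were handled. Symbols came from GENCODE M21 (GRCm38), in which all 10 genes were found once.

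Counts were tested over the whole table in R 4.3.3 by the quasi-likelihood test of edgeR 4.0.16 on diet (glmQLFit, glmQLFTest), after filterByExpr and TMM, and p-values were adjusted by Benjamini-Hochberg with a threshold of 0.05. Standard errors and 95% intervals are approximate, from the coefficient and its F statistic. CPM uses TMM-adjusted library sizes, and RPKM divides it by the exon length in the tables. No pair of libraries was as close as sampling noise: the chi-square per degree of freedom was 2.64 to 8.84 within groups and 47.5 to 62.5 between groups.

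Alternatives were other size factors, other filters on low counts, DESeq2 1.42.0, limma-voom (limma 3.58.1), no mitochondrially encoded genes, each library left out, the replicate number as a block, and offsets for exon length and GC content, fitted in each library by a smooth function (mgcv 1.9.3). The named genes were the 10 members, the 3 genes of each pathway list with the smallest p, and any called with a change of at least 2 fold; in marker lists, the 2 of highest mean CPM, which is not per length, and those at 0. Other called markers, and list genes said to lie outside this rule, were named after their values were seen. The members and lists were chosen with earlier results of these data known.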

Additional observations from a re-analysis of the deposited data

How the results depend on the processing

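Under 15 alternatives Alox5ap, Ltc4s and Ptgis stayed lower and past the threshold, with log2 fold changes of -1.43 to -0.89, -1.48 to -0.98 and -0.64 to -0.41 and adjusted p of at most 0.00416, 0.0368 and 0.0441. The number of members called lower was 3 in each, and the number called higher was 1 (Ptgds) with no filter on low counts (log2 fold change 0.36), with length and GC offsets (0.65) and without chow replicate 1, so 0 to 1 with a library left out. With each library left out in turn, Ptgds ranged from -0.021 to 0.91, Alox5 from -0.075 to 0.24 and Alox12 from -0.33 to 0.39. The log2 fold change of Alox5 was -0.019 with library totals only, -0.01 without HFHS replicate 1 and -0.075 without chow replicate 1. That of Alox12 was 0.20 when HFHS replicate 1 was left out and 0.39 when chow replicate 1 was, and Ptgds was at -0.021 without chow replicate 2. The causes were not tested. Of the pathway genes, 1 was called higher with the offsets and 2 to 4 with a library left out, and 10 to 17 lower over all alternatives. With the macrophage sum taken without Lyz2, the log2 difference of the ratio moved from 1.34 to 1.09 for Alox5, 0.01 to -0.23 for Alox5ap and -0.12 to -0.37 for Ltc4s. With the replicate number as a block, 0 members were called higher and 3 lower, and Ptgds was at 0.14. In that fit 1 prostanoid receptor gene was called lower where none was without the block. HFHS replicate 3 has no chow library of its number, so the block in effect sets it aside. The fit resembles that without HFHS replicate 3, with Alox5ap at -1.43 in both. Same-numbered libraries deviated together with correlations of only 0.03 and 0.01 in 2 pairs, so they share a number and no known pairing. Leaving out a chow library leaves 1, assumed to vary like the HFHS libraries. Depth limits Ptgs2 and Ptges most: Ptgs2 had a fold change in 12 alternatives, with no adjusted p from DESeq2, and Ptges in 14.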
